A study of Mus musculus with 1699 samples.

Results

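The cells described here were adult ventral midbrain neurons with high Nxph4 that held Th mRNA, the genes that name the study's NT-Dat low group. They were chosen here by expression alone and not from its groups, as P90 cells with more than 100000 reads, an Nxph4 RPKM (reads scaled by transcript length and library size) over 150 and a Th RPKM over 10. This rule took 94 of the 1699 cells in the whole series, and 28.9% of the P90 cells that passed the read limit (exact 95% interval 24.1 to 34.2). That is a share of sorted cells and not of the tissue. By in situ sequencing of sections, the study found its Dat-high groups underrepresented among the sequenced cells and the Dat-low groups a small minority. Of these 94 cells, 20 had Gad2, a GABA synthesis gene, over 150 and 2 had Slc6a3, the dopamine transporter gene, over 150. The study placed clusters by such levels of these genes among others, so that the rule can mix cells of its groups. It could not locate the NT-Dat low group by classical histology, but found it by in situ sequencing. It raised the possibility that these neurons hold Th mRNA without the protein. All levels given here are of RNA. The P90 mice were Pitx3eGFP/wt (Pitx3tm1Mli heterozygote), so that every cell of all classes carried 1 Pitx3 allele replaced by eGFP, and GFP-positive cells were sorted from papain-dissociated ventral midbrain at postnatal day 90, with several animals used per stage. Full-length cDNA was made from single cells with Smart-seq2. The sort takes cells that hold GFP protein made from the Pitx3 locus, whether or not they make dopamine. The study describes this protein as stable, so that it can remain where the mRNA is low. Male and female mice were used, with ERCC spike-in RNA in the lysis buffer of the P90 cells.

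Dopamine is made from tyrosine by tyrosine hydroxylase (Th) and aromatic amino acid decarboxylase (Ddc), loaded into vesicles by the monoamine transporter VMAT2 (Slc18a2) and taken back from the synapse by the dopamine transporter (Slc6a3, or Dat). Nxph4 encodes a neurexophilin, a secreted ligand of alpha-neurexins. Slc17a6 encodes VGLUT2, which loads glutamate into vesicles, and some midbrain neurons are known to use dopamine together with glutamate or GABA.

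The 94 cells were set against 2 other classes of P90 cells, the 76 cells with Nxph4 over 150 and Th of 10 or less (Th-low cells) and the 71 cells with Slc6a3 over 150 (Slc6a3-high cells). A further 86 cells met none of these rules. A pair of Th-expressing Nxph4-high cells also met the Slc6a3 rule and were counted in both classes, with Nxph4 at 154.3 and 154.8, just above its limit, and Slc17a6 at 0.447 and 0.192. The labels name no animal, so that each class was treated as 1 sample and no test between classes was made. The intervals given cover only the counting of cells, by the exact method for a share and by Newcombe's method for a difference of shares. The Th-expressing cells held 333580 to 5222838 reads (median 1684558), the Th-low cells a median of 1953034 and the Slc6a3-high cells a median of 1894398. The median number of entries with a read was 8744, 8780 and 8929 in the same order.

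The P90 titles carry a set number of 1, 2, 4 or 5. Of the 94 cells, 28, 32, 25 and 9 came from these sets. No cell of sets 1 and 2 had 10 reads of Xist, while 86 of 94 and 88 of 92 cells had 10 reads of Y-linked genes. In sets 4 and 5, 70 of 93 and 35 of 46 cells had 10 reads of Xist and none had 10 of Y-linked genes. Sex, animal and set cannot be told apart. Th-expressing cells made up 60.9% of the Nxph4-high cells of set 1 (exact 95% interval 45.4 to 74.9), 65.3% in set 2 (50.4 to 78.3), 46.3% in set 4 (32.6 to 60.4) and 42.9% in set 5 (21.8 to 65.98). Values within sets are therefore given for some genes, and pooled shares of the others can also depend on set.

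Th and Nxph4 chose the cells, and their levels are a description. Th ran from 10.8 to 2424 RPKM in the 94 cells, with a median of 206.4 and quartiles of 80.9 and 568. In the Slc6a3-high cells Th ran from 1.55 to 14172 with a median of 5488, and 1 cell there lay under 10. Of the Th-expressing cells, 12 had Th of 10 to 50, 24 of 50 to 150 and 58 over 150, of which 13 were over 1000. The cells nearest above the Th limit had 10.8, 11.7 and 13.5 RPKM, and the Th-low cells nearest below it had 9.89, 8.97 and 8.96. Near the limit stood 9 cells with Th under 20 and 26 Th-low cells with Th over 5. Only 1 Th-low cell had no Th read, so that the limit divides levels and does not divide presence from absence. Nxph4 had a median of 352.4 in the Th-expressing cells (153.9 to 961) and 352.5 in the Th-low cells (174.9 to 879). The Nxph4 limit was approached from above by 15 Th-expressing cells under 200, the lowest at 153.9, and from below by 8 cells with Nxph4 of 100 to 150, Th over 10 and Slc6a3 of 150 or less, the highest at 134.3.

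**Figure D1:**
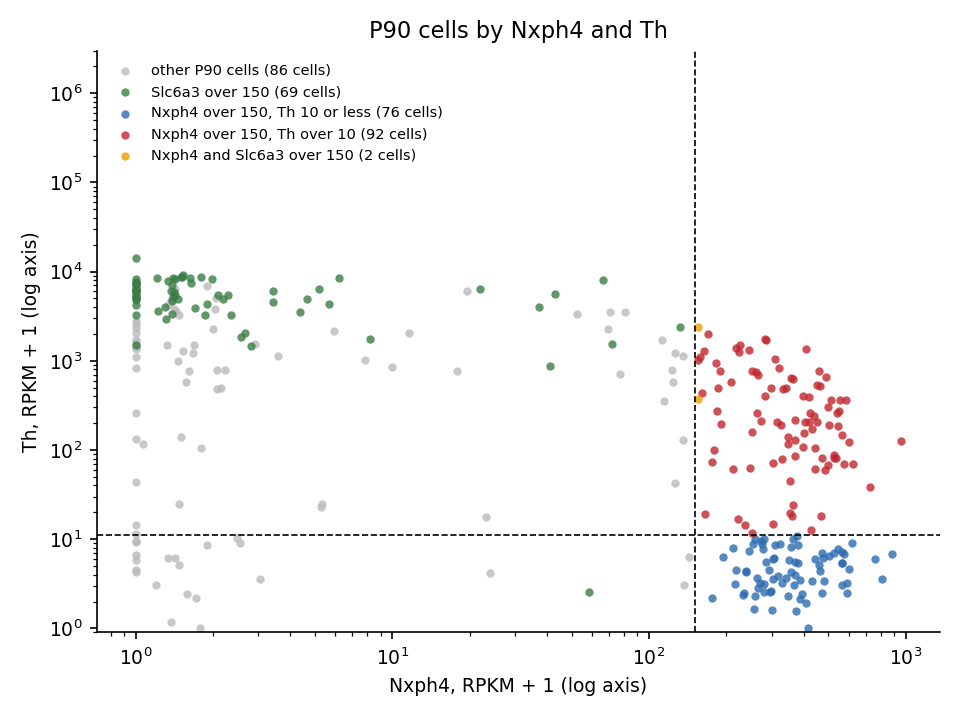
Th against Nxph4 in P90 cells over the read limit, both as RPKM + 1 on log axes, with 1 point per cell, colors for the classes and dashed lines at the limits of 150 and 10. The Th-expressing Nxph4-high cells spread from 10.8 to 2424 RPKM of Th, and 1 Slc6a3-high cell had Th of 1.55.

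The label was checked against its markers. Slc17a6 was over an RPKM of 10 in 92 of 94 cells (97.9%, exact 95% interval 92.5 to 99.7), and Ddc in 76 of 94 (80.9%, 71.4 to 88.2). All 94 cells had at least 3 of 7 neuron markers over 10. Several defining markers of other cells were at 0. Olig1 and Sox10 of oligodendrocytes, Aqp4 and Gja1 of astrocytes, Cx3cr1, Csf1r, C1qa, C1qb and Tmem119 of microglia, and Cldn5, Flt1 and Pdgfrb of vessels had no read-derived level above 0 in any of them. Mbp, the major myelin protein, was over 10 in 24.5% of them, in 30.3% of Th-low cells and in 18.3% of Slc6a3-high cells, and 1 Th-expressing cell, 2 Th-low cells and 0 Slc6a3-high cells held 3 or more of 9 oligodendrocyte markers. The sum of those 9 markers had a median of 3.66 RPKM in the Th-expressing cells (0 to 92.9), 9.60 in the Th-low cells (0 to 140.4) and 2.43 in the Slc6a3-high cells (0 to 162.2). The 6 astrocyte markers summed to a median of 115.8 RPKM in the Th-expressing cells (0 to 2624), 405 in the Th-low cells (0 to 2675) and 55.5 in the Slc6a3-high cells (0 to 1297). At least 3 of them were over 10 in 1, 2 and 0 cells of the same classes. Aldoc was the only one of the 6 with a mean RPKM of 10 in either Nxph4-high class, and their part in the differences was not tested. The 6 microglia and the 5 vessel markers each summed to a median of 0 in the Th-expressing cells, with highest sums of 16.9 and 44.9 RPKM. eGFP was over 10 in 54.3%, 57.9% and 56.3% of the 3 classes, in the same order.

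Th aside, among entries at least 2-fold higher in Th-expressing than in Th-low cells, those of dopamine synthesis and storage, Ddc and Slc18a2, had the largest gain in share of cells. Ddc had a median of 220.9 RPKM in the Th-expressing cells (0.405 to 2624), of 2.10 in the Th-low cells (0 to 1299) and of 1857 in the Slc6a3-high cells (556 to 3698). It was over 10 in 80.9% of Th-expressing and 26.3% of Th-low cells, a difference of 54.5 percentage points (95% interval 40.4 to 65.4). Slc18a2 had a median of 53.3 in the Th-expressing cells (0 to 724), of 0.754 in the Th-low cells (0 to 159.6) and of 503 in the Slc6a3-high cells (1.64 to 1327). Its shares were 75.5% and 34.2%, a difference of 41.3 points (26.6 to 53.6). The ranges of single cells overlapped for both genes, since 20 Th-low cells held Ddc and 26 held Slc18a2 over 10. Within the 4 sets, whose like direction the call required, the differences were 44.4 to 83.3 points for Ddc and 23.9 to 61.5 points for Slc18a2. Set 4 had the lowest share of Slc18a2, 48% of its 25 Th-expressing cells, against 77.8% to 89.3% in the other sets.

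The transporter that takes dopamine back was largely missing. Slc6a3 had a median of 1.36 RPKM in the Th-expressing cells and was over 10 in 8 of 94 (8.51%, exact 95% interval 3.75 to 16.1). In the Th-low cells it was over 10 in 0 of 76, where 3 cells would make 3.95% and the exact 95% interval reaches 4.74%. Its Slc6a3-high levels (165.3 to 6570) follow from the rule. The 8 cells with Slc6a3 had 2928, 1320, 125.3, 122.3, 64.4, 20.7, 20.4 and 15.9 RPKM. The first pair are those that met both rules, and they had Th of 2424 and 373.7. The 3 cells with Slc6a3 of 64.4 to 125.3 had Th of 1274 to 1510, Gad2 of 180.1 to 363.9 and Slc17a6 of 70.8 to 354.6, so that they held genes of 3 transmitters.

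Relative to Th itself, Slc6a3 stood at 11.9 RPKM per 100 of Th over the Th-expressing cells, at 1.40 without the 2 cells that met both rules, and at 35.9 over the Slc6a3-high cells. Ddc stood at 74.3 per 100 of Th without the pair and at 34.7 in the Slc6a3-high cells, and Slc18a2 at 19.04 and 10.1. Cck, a neuropeptide gene of many dopamine neurons, stood at 1.69 and 31.5. As Th and Slc6a3 chose the cells, these ratios are a description. No doublet caller was run.

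The other genes of dopamine handling differed less in share from the Th-low cells. Gch1, which starts the synthesis of the cofactor of tyrosine hydroxylase, was over 10 in 11 of 94 Th-expressing cells, in 4 of 76 Th-low cells (difference 6.44 points, -2.60 to 15.1) and in 54 of 71 Slc6a3-high cells. The cofactor genes Pts, Spr and Qdpr were over 10 in 52.1%, 92.6% and 100% of Th-expressing cells and in 51.3%, 94.7% and 100% of Th-low cells. Drd2, the dopamine autoreceptor, was over 10 in 8.51% of Th-expressing, 1.32% of Th-low and 78.9% of Slc6a3-high cells. Slc10a4, a vesicle transporter relative of aminergic cells, was over 10 in 21.3%, 3.95% and 100%, and Aldh1a1, a retinaldehyde dehydrogenase of some nigral neurons, in 15.96%, 1.32% and 54.9%. The monoamine oxidase genes Maoa and Maob were over 10 in 41.5% and 11.7% of Th-expressing cells, and in 34.2% and 7.89% of Th-low cells.

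**Figure D2:**
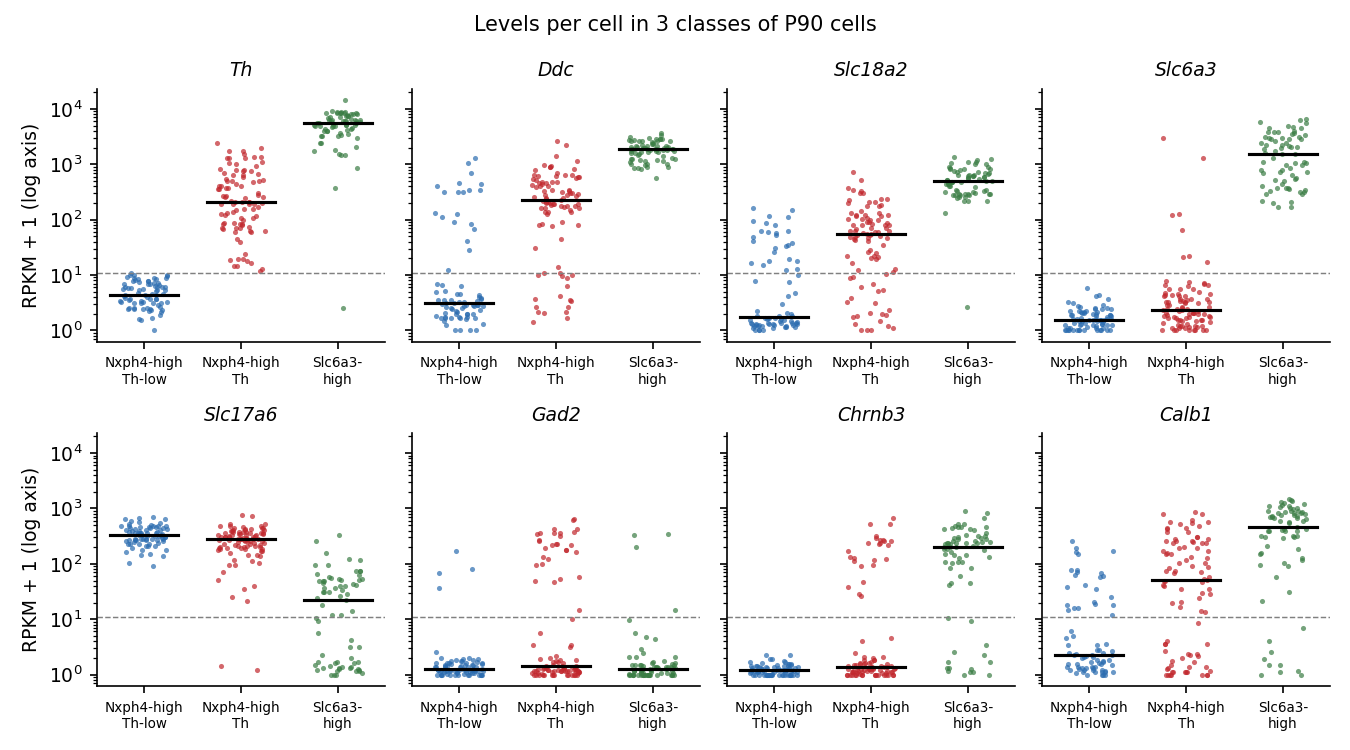
RPKM + 1 per cell on log axes for 8 genes in Th-low, Th-expressing and Slc6a3-high P90 cells, with 1 point per cell, black bars at the medians and dashed lines at an RPKM of 10. The cells in both of the last classes are drawn in each. Ddc and Slc18a2 medians of the Th-expressing cells (220.9 and 53.3) lie between those of the other classes, while that of Slc17a6 (274.96) lies nearer the Th-low cells (326.8) than the Slc6a3-high cells (21.2).

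The upstream sequences of Th, Ddc, Slc18a2 and Slc6a3 are shown. Th and Slc6a3 chose the classes. After Th, Ddc and Slc18a2 had the largest gain in share among entries at least 2-fold higher than in Th-low cells. The sequences are printed as RefSeq gives them on GRCm38.p6, 250 bases before each start annotated there, in the direction of the gene. Capitals mark letters of any of 4 motifs searched on both strands, the Nr4a response element AAAGGTCA, the bicoid-type Pitx site TAATCC, the TATA box TATAAA and the cyclic AMP response element TGACGTCA.
Th at chr7:142899996-142900245, minus strand: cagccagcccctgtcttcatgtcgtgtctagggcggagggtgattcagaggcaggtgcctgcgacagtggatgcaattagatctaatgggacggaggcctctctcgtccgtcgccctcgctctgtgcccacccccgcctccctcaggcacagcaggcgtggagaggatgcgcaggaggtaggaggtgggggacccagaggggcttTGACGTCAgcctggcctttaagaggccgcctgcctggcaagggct
Ddc at chr11:11898145-11898394, minus strand: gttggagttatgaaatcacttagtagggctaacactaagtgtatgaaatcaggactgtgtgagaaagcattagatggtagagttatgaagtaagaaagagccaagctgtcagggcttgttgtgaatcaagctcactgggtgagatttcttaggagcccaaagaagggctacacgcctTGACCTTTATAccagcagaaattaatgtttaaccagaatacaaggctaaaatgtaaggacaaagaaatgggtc
Ddc at chr11:11890409-11890658, minus strand: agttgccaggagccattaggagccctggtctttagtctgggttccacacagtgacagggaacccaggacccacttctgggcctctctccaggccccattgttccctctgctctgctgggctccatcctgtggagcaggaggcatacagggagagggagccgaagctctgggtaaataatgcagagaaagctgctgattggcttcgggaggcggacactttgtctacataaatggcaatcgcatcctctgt
Slc18a2 at chr19:59260628-59260877, plus strand: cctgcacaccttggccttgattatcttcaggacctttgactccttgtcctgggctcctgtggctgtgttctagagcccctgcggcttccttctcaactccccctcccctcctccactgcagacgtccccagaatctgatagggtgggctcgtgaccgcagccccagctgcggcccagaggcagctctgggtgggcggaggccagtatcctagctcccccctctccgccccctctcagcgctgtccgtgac
Slc6a3 at chr13:73536497-73536746, plus strand: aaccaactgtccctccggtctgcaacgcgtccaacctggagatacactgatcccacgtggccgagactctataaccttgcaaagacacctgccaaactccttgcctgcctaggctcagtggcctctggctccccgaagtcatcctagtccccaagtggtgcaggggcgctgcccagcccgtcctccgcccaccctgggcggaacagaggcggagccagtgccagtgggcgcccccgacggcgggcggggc
The Th window holds the cyclic AMP response element from base -45, as do 1.55% of 32851 windows of this length. The upper Ddc window holds an Nr4a element in reverse from base -73 and a TATA box in reverse from base -68, which overlap. The Nr4a element was found in 1.34% of all windows, the Pitx site in 6.25% and the TATA box in 12.4%. The lower Ddc window and those of Slc18a2 and Slc6a3 hold none of these letters. A match describes letters and not a used site. The Th gene lies at chr7:142892752-142931128 in the GENCODE vM21 annotation of GRCm38, Ddc at chr11:11814101-11898144, Slc18a2 at chr19:59260896-59296012, Slc6a3 at chr13:73536747-73578672 and Nxph4 at chr10:127525473-127534559. RefSeq and GENCODE starts can differ. The Th window and the lower Ddc window lie within the GENCODE spans of their genes, and the Slc18a2 window does not reach up to the GENCODE start.

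Nearly all Th-expressing cells held Slc17a6, and a minority held Gad2 as well. Slc17a6 had a median of 274.96 RPKM (0.192 to 764) against 326.8 in the Th-low cells (92.1 to 709) and 21.2 in the Slc6a3-high cells (0 to 329.01). Its share over 10 differed from the Th-low cells by -2.13 points (-7.43 to 2.92) and from the Slc6a3-high cells by 41.5 points (29.4 to 53.2). The other vesicular glutamate transporters, Slc17a7 and Slc17a8, were over 10 in 0 of 94 cells, where 3 cells would make 3.19% and the exact 95% interval reaches 3.85%.

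Gad2, which makes GABA from glutamate, was over 10 in 29 of 94 Th-expressing cells (30.9%, exact 95% interval 21.7 to 41.2), in 4 of 76 Th-low cells and in 4 of 71 Slc6a3-high cells. The difference from the Th-low cells was 25.6 points (14.3 to 36.02), and 16 to 33.3 points within sets. Gad2 had a median of 0.406 over the 94 cells and a highest value of 657, and 20 of the 29 cells were over 150. All 29 cells with Gad2 also held Slc17a6 over 10, and 26 of them held Ddc, Slc18a2, Slc17a6 and Gad2 together. Gad1 was over 10 in 8 cells, only 2 of which held Gad2. The vesicular GABA transporter gene Slc32a1 was over 10 in 6 cells, 5 of them with Gad2. Of 10 genes of other transmitters listed, 9 had an entry and none reached a mean of 10 in any class, with Chat, which makes acetylcholine, over 10 in 4 Th-expressing cells.

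Across the 8034 entries with a mean RPKM of at least 10 in either class, 79 (0.983%) were at least 2-fold higher and 72 (0.896%) at least 2-fold lower in Th-expressing than in Th-low cells, in the same direction in all 4 sets. Folds are on the scale of log2(mean RPKM + 1). Without set 2, 1.61% were higher, and 1.62% were lower without set 4 and 1.38% without set 5. With all cells and no condition on sets, 1.32% were higher and 1.31% lower. The median log2 difference of all tested entries was 0.02. Against the Slc6a3-high cells, 397 of 8096 entries (4.90%) were higher and 3.42% lower by the same rule, with a median of 0.08. The 2 comparisons share the Th-expressing cells.

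Of 14 genes of dopamine synthesis and handling, 11 were tested against the Th-low cells and 6 were higher, among them Th itself, which the rule used. Of all tested entries, 0.983% were called higher and 0.896% lower. A gene that reaches a mean of 10 in only 1 class can be called in only 1 direction, and Slc6a3, Aldh1a1 and Slc10a4 were tested only through the Th-expressing cells, so that the count is no support for a direction of the list. Besides Th the 6 were Ddc (1.96), Slc18a2 (2.13), Slc6a3 (4.86), Aldh1a1 (3.15) and Slc10a4 (2.51). Slc6a3 and Slc10a4 rested on the 2 cells that met both rules. Without the pair their log2 differences were 1.90 and 1.22, and neither reached the mean RPKM of 10 needed for a call. The mean of Slc6a3 was 50.7 RPKM with the pair and 5.67 without.

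The nicotinic receptor subunit genes Chrna6 and Chrnb3 differed between the Nxph4-high classes, and Chrna4 did not pass 2-fold. Chrna6 was over 10 in 22 Th-expressing cells (23.4%) and Chrnb3 in 25 (26.6%), and in 0 of 76 Th-low cells each (exact 95% interval up to 4.74%). In the Slc6a3-high cells the shares were 85.9% and 78.9%. Both subunits were over 10 together in 18 Th-expressing cells, Chrna6 alone in 4 and Chrnb3 alone in 7. Within the 4 sets the differences from the Th-low cells were 8 to 44.4 points for Chrna6 and 20 to 44.4 points for Chrnb3. Of 9 tested genes of dopamine neuron receptors and channels these 2 passed 2-fold, beside 0.983% of all tested entries called higher and 0.896% lower. Both reached a mean of 10 only in the Th-expressing cells, so that they could only be called higher. Chrna4 was over 10 in 73.4% of Th-expressing and 75% of Th-low cells, a difference of -1.60 points (-14.4 to 11.8). Gfra1, a GDNF co-receptor, did not pass (log2 difference -0.31), although its share over 10 was 44.7% against 76.3% in the Th-low cells.

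The 12 genes with the largest gain in share among those at least 2-fold higher included Calb1, the calcium buffer calbindin, besides Ddc and Slc18a2. Calb1 was over 10 in 67.02% of Th-expressing and 31.6% of Th-low cells (35.4 points, 20.5 to 48.2). Its medians were 50.7 and 1.23 RPKM, against 460 in the Slc6a3-high cells. Cbln1, a secreted neurexin ligand, was over 10 in 63.8%, 28.9% and 29.6% of the 3 classes. Gm2694 lies antisense to Cbln1 and was over 10 in 52.1%, 21.1% and 35.2%, and as the libraries do not mark strand, reads of these 2 genes cannot be told apart where they overlap. Chrm2, a muscarinic receptor, was over 10 in 44.7%, 11.8% and 7.04%, and it too overlaps an antisense gene. Ptpru, a receptor phosphatase, was over 10 in 47.9%, 9.21% and 70.4%, and Cnpy1 in 55.3%, 15.8% and 70.4%. The others were Lmo3, a LIM-only protein (60.6% against 32.9%), Appl2, an endosomal adaptor (56.4% against 23.7%), Ndst3, a heparan sulfate sulfotransferase (54.3% against 26.3%) and Spon1, an extracellular matrix protein (52.1% against 21.1%). Over the 4 sets, Calb1 was over 10 in 44% to 82.1% of Th-expressing cells, Chrm2 in 24% to 56.2% and Spon1 in 24% to 67.9%. Each of these 3 was higher than in the Th-low cells of all 4 sets.

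Among entries at least 2-fold lower in Th-expressing than in Th-low cells, Car10, a carbonic anhydrase-related neurexin ligand, had the largest loss in share. It was over 10 in 32.98% of Th-expressing and 78.9% of Th-low cells, a difference of -45.97 points (-57.5 to -31.5). Its medians were 0.527 and 63.6 RPKM. Car10 is on the list of Nxph4 group genes, which the study drew from these cells, so that the list is not independent evidence of its direction. Car10 was the 1 of 6 genes on that list that passed 2-fold, lower in Th-expressing cells. Beside this, 0.983% of all tested entries were called higher and 0.896% lower. Nxph4 itself is among the 6, and the rule chose both classes for high Nxph4, so that it was not free to differ as the others were. C1ql1, a complement-like secreted protein, was over 10 in 93.6% and 97.4%, Fam19a2 in 72.3% and 88.2%, and Lypd1 in 71.3% and 60.5%. Receptors on this side were the serotonin channel gene Htr3a (4.26% against 40.8%) and the muscarinic Chrm1 (12.8% against 48.7%). Signalling molecules were the chemokine Cxcl12 (7.45% against 44.7%), the growth factor Pdgfd (3.19% against 36.8%) and the guanine nucleotide exchange factor Rasgrp1 (27.7% against 64.5%). Bcl11a, a zinc finger transcription factor, was over 10 in 7.45% against 47.4%, Ptgds, a prostaglandin D synthase, in 18.1% against 55.3%, Klhl13, a ubiquitin ligase adaptor, in 43.6% against 76.3% and Pcp4, a calmodulin regulator, in 36.2% against 68.4%. Without the 2 cells that met both rules Pcp4 was not called (log2 difference -1.36). Aldoc, an aldolase that astrocytes hold at high levels, was over 10 in 56.4% against 89.5%. Of 6 astrocyte markers with Aldoc among them, only Aqp4 and Gja1 were at 0 in every cell of the 3 classes. At least 3 of the 6 were over 10 in 1 Th-expressing and 2 Th-low cells. Their part in the difference was not tested.

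**Figure D3:**
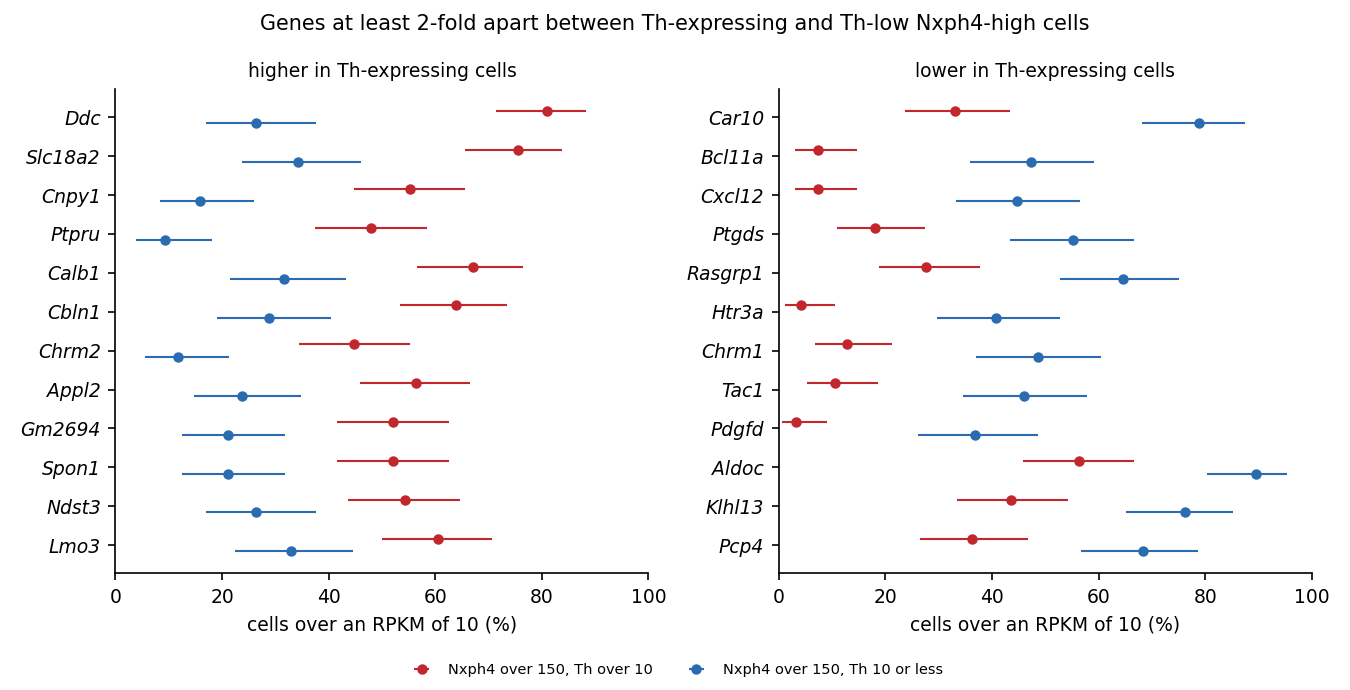
Share of cells over an RPKM of 10, in percent, for the 12 genes with the largest gain (left) and loss (right) in share among those at least 2-fold apart between the Th-expressing and Th-low cells, with exact 95% intervals over 94 and 76 cells. Ddc (80.9% and 26.3%) and Car10 (32.98% and 78.9%) differ most.

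Tac1 and Penk, both neuropeptide genes, were lower in the Th-expressing cells. Tac1, the precursor of substance P, was over 10 in 10 of 94 cells against 35 of 76 Th-low cells, a difference of -35.4 points (-47.5 to -22.1), and its highest values were 1700 and 4236 RPKM. Penk, the precursor of enkephalins, was over 10 in 22 of 94 against 39 of 76, a difference of -27.9 points (-41.1 to -13.4). They were 2 of 10 tested neuropeptide and granin genes that passed 2-fold, beside 0.983% of all tested entries called higher and 0.896% lower. That list does not hold Calca, which encodes calcitonin and CGRP and was called higher (log2 difference 1.10). Adcyap1, which encodes PACAP, did not pass, with 76.6% and 86.8% and medians of 96.9 and 278.1 RPKM. Of 15 tested genes on a list of neurexins and neurexin ligands, which does not hold Car10, Cbln1 was higher and Cbln2 lower (28.7% against 52.6% of cells). Nrxn3, one of their receptors, was over 10 in 86.2% against 42.1%, with a log2 difference of 0.99 just short of 2-fold.

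Of 10 tested transcription factors of the dopamine lineage, Otx2 was called higher and none lower against the Th-low cells, with a median log2 difference of 0.55 against 0.02 over all entries tested, of which 0.983% were called higher and 0.896% lower. Otx2 reached a mean of 10 only in the Th-expressing cells of these 2 classes and could only be called higher. Nr4a2 had medians of 122.01 and 105.3 RPKM in Th-expressing and Th-low cells and was over 10 in 97.9% and 96.1%. Lmx1a was over 10 in 70.2% and 78.9%, Foxa2 in 80.9% and 68.4%, and Pitx3 in 29.8% and 50% (-20.2 points, -33.97 to -5.44). Otx2, a midbrain patterning factor known from ventral tegmental neurons, was over 10 in 25 of 94 Th-expressing and 2 of 76 Th-low cells. That difference came mainly from sets 1 and 2, where 13 of 28 and 10 of 32 Th-expressing cells held it, against 1 of 25 and 1 of 9 in sets 4 and 5. Its share among Slc6a3-high cells moved the same way, at 42.9% in sets 1 and 2 each, 15.4% in set 4 and 22.2% in set 5. On lists that the study drew from these cells, the Gad2 group genes Gad2 and Ebf3 were higher and Wnt7b lower, and Dlk1 and Slc10a4 of the Dat-high group were higher. Without the 2 cells that met both rules, Dlk1 had a log2 difference of 0.71 and was not called.

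**Figure D4:**
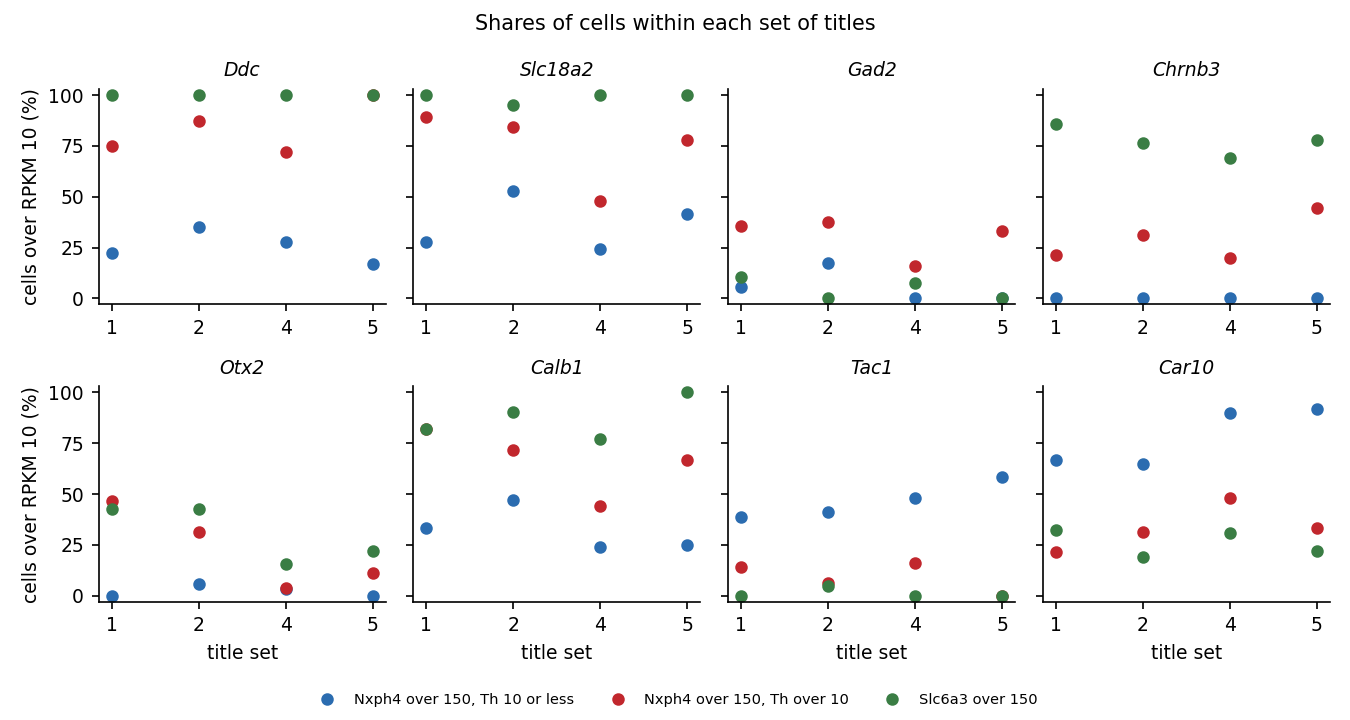
Share of cells over an RPKM of 10, in percent, in each set of titles for 8 genes, with 1 point per class and set. Ddc, Slc18a2, Gad2, Chrnb3 and Calb1 were higher, and Tac1 and Car10 lower, in Th-expressing than in Th-low cells of all 4 sets, while Otx2 reached 46.4% in set 1 and 4% in set 4.

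Of all tested entries, 0.983% were called higher and 0.896% lower than in Th-low cells, so that a short list without a call is unremarkable. Several lists held no gene that met the whole call, 2-fold and the same direction in all 4 sets, against the Th-low cells. These were 20 energy metabolism genes (median log2 difference 0.05), 9 tested parkinsonism and synuclein genes (-0.01), 3 glutamate transmitter genes (-0.19), 2 regional transcription factors, 7 neuron markers (0.11) and 12 immediate early and stress genes (-0.75). Sncg of the synuclein list and Fosb, Arc, Nr4a1, Hspa1a and Hspb1 of the last list were past 2-fold in the means, but not with 1 direction in all sets. The last group, which handling of tissue can induce, had Fos over 10 in 81.9% of Th-expressing and 88.2% of Th-low cells and in 50.7% of Slc6a3-high cells. Levels of Fos differed more than these shares. Its median RPKM in Th-expressing and Th-low cells was 322.2 and 808 in set 1, and 223.9 and 1649 in set 2. It was 181.9 and 276.4 in set 4, and the other way in set 5, at 371.6 and 158.7. The part of this last group in the other differences was not tested.

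Within the Th-expressing cells, Ddc and Slc18a2 went with the level of Th. Ddc was over 10 in 58.3% of cells with Th of 10 to 50, 62.5% with 50 to 150 and 93.1% over 150, and Slc18a2 in 50%, 66.7% and 84.5%. In the same bands Gch1 was over 10 in 8.33%, 8.33% and 13.8%, Drd2 in 8.33%, 8.33% and 8.62%, Slc10a4 in 16.7%, 25% and 20.7% and Aldh1a1 in 16.7%, 20.8% and 13.8%. Chrnb3 was over 10 in 0 of 12 cells (exact 95% interval up to 26.5%), 1 of 24 (4.17%) and 41.4% of 58 in the same bands, and Gad2 in 8.33%, 25% and 37.9%. Tac1 went the other way, at 33.3%, 20.8% and 1.72%, with 46.1% in the Th-low cells. Slc17a6 was at 100%, 100% and 96.6%. The exact intervals of the lowest band are wide, from 27.7% to 84.8% for Ddc.

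**Figure D5:**
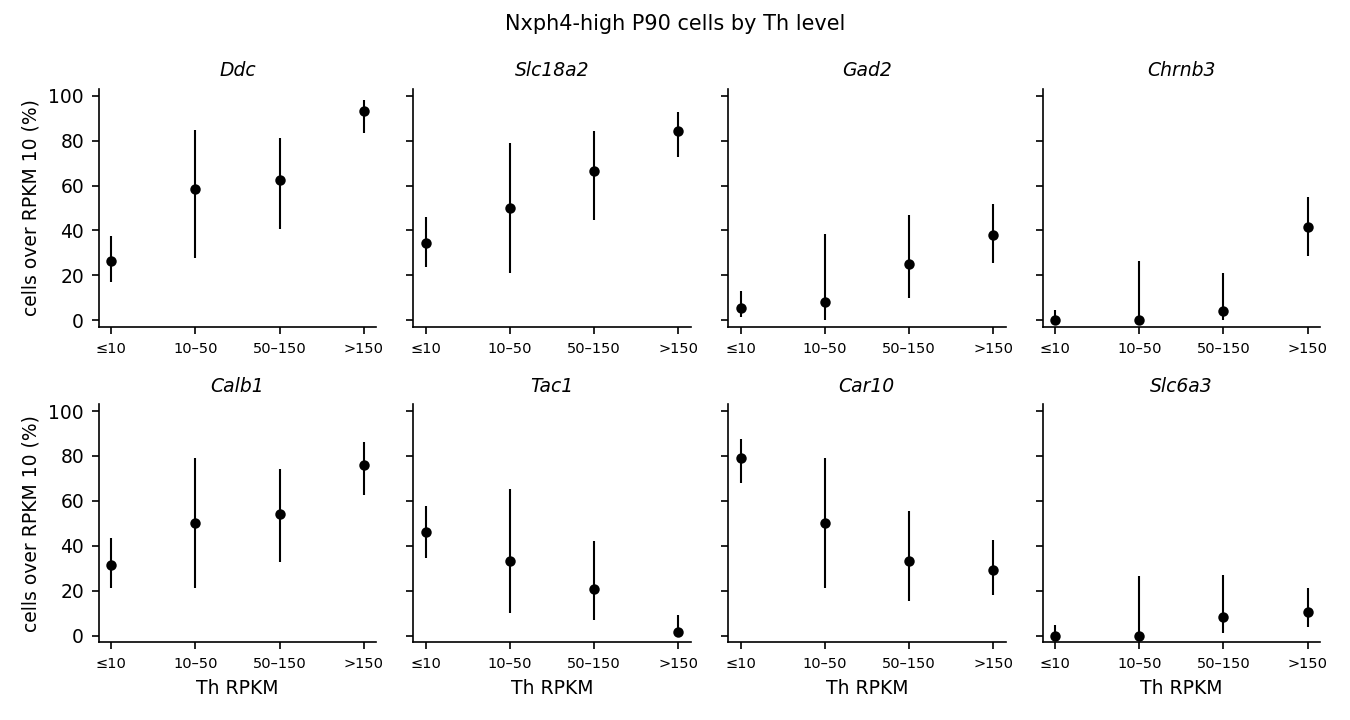
Share of cells over an RPKM of 10, in percent, for 8 genes in 76 Nxph4-high cells with Th of 10 or less and in 12, 24 and 58 cells with Th of 10 to 50, 50 to 150 and over 150, with exact 95% intervals. Ddc reached 93.1% and Chrnb3 41.4% in the highest band, where Tac1 was at 1.72%.

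The genes most like Th across the 94 cells, among 4958 that were over 10 in at least 50% of them, were Slc18a2 (Spearman rho 0.50), Lmo3 (0.48), Serpini1, a neuronal protease inhibitor (0.46), Ddc (0.44) and Wnt5a, a secreted Wnt ligand (0.43). The median over all of them was 0.00, with a range of -0.40 to 0.50. Slc6a3 had a rho of 0.03, Nxph4 itself of -0.32, C1ql1 of -0.38 and Slc17a6 of -0.27. RPKM values of 1 cell share its read total, and Th had a rho of 0.16 with reads and 0.05 with entries detected. Ddc and Slc18a2 had a rho of 0.19 with each other. Of the 94 cells, 59 held both over 10, 17 Ddc alone, 12 Slc18a2 alone and 6 neither.

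Cells with and without Gad2 differed in further genes. This division was chosen after its values had been seen. The 29 cells with Gad2 over 10 had a median Th of 538 RPKM against 191.8 in the other 65, and a median Slc18a2 of 90.5 against 25.3. Calb1 was over 10 in 96.6% against 53.8% (42.7 points, 24.8 to 55.03), Chrnb3 in 55.2% against 13.8% (41.3 points, 20.9 to 58.9) and Ebf3, a transcription factor, in 51.7% against 27.7%. Car10 was over 10 in 10.3% against 43.1% and Penk in 3.45% against 32.3%. Nxph4 had medians of 369.1 and 347.7 and median reads were 1580982 and 1690245. Gad2 was over 10 in 10 of 28, 12 of 32, 4 of 25 and 3 of 9 Th-expressing cells of sets 1, 2, 4 and 5.

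Against the Slc6a3-high cells, the Th-expressing cells had lower levels of many genes of the classical dopamine neuron. The same limit on direction applies to the counts over lists here. Of 14 tested genes of dopamine handling, 9 were lower, Th and Slc6a3 included, and of 14 tested receptors and channels 12 were lower, beside 3.42% of all tested entries. Drd2 and Ntsr1, for example, had mean RPKM values of 5.85 and 4.18 in the Th-expressing cells and were tested only through the Slc6a3-high cells. Cck was over 10 in 5 of 94 against 61 of 71 cells (-80.6 points, -87.5 to -68.7), the neurotensin receptor gene Ntsr1 in 7.45% against 95.8% and Dlk1, a Notch-family ligand, in 12.8% against 95.8%. Slc10a4, Drd2, Gch1 and Chrna6, described above, differed by -78.7, -70.4, -64.4 and -62.5 points. Nnat (27.7% against 94.4%) overlaps the gene Blcap on the other strand. The remaining genes of the 12 were Cadps2, a vesicle priming factor (8.51% against 76.1%), Nell2 (30.9% against 88.7%), the zinc transporter gene Slc39a4 (9.57% against 64.8%) and S100a10 (26.6% against 81.7%). Of subgroup genes that the study drew from these cells, Vip was over 10 in 1 Th-expressing cell, Npw in 0 and Grp in 2, and these too were tested only through the Slc6a3-high cells. Without the 2 cells that met both rules, Grp was over 10 in 0 of 92 Th-expressing cells. Lower did not mean absent. Ret, the GDNF receptor, was 2-fold lower (log2 difference -1.54) but over 10 in 94.7% of Th-expressing cells. Further genes lower by 2-fold were Gfra1 (-2.34), Kcnn3 (-2.42), En1, a midbrain homeobox factor (-2.02), and Syt1, a synaptic vesicle calcium sensor (-2.64).

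Genes with the largest gain in share among those at least 2-fold higher than in Slc6a3-high cells are given with their share in Th-low cells. C1ql1 was over 10 in 93.6%, 97.4% and 5.63% of Th-expressing, Th-low and Slc6a3-high cells. Edil3, an extracellular matrix protein, was over 10 in 79.8%, 89.5% and 14.1%, Rasgrf1, a guanine nucleotide exchange factor, in 96.8%, 100% and 32.4%, Fam19a2, a secreted protein, in 72.3%, 88.2% and 8.45%, Sparcl1, a matrix protein, in 93.6%, 90.8% and 33.8% and Gng13, a G protein subunit, in 90.4%, 97.4% and 30.99%. The neurofilament gene Nefl was over 10 in 97.9%, 100% and 39.4%. Medag was over 10 in 60.6%, 28.9% and 2.82%, and Arpp21, an RNA-binding phosphoprotein, in 64.9%, 47.4% and 8.45%. Calca, which encodes calcitonin and CGRP, was over 10 in 72.3%, 57.9% and 12.7%, and was also 2-fold higher than in Th-low cells (log2 difference 1.10). Of branch transcription factors on a list drawn from these cells, which is no independent evidence, the higher ones included Zfp536 (55.3%, 68.4% and 0 of 71 cells, with an exact 95% interval up to 5.06%), Nfix (67.02%, 68.4% and 7.04%) and Tcf4 (96.8%, 100% and 43.7%). Over the 4 sets, Nfix was over 10 in 22.2% to 89.3% of Th-expressing cells and Medag in 22.2% to 78.6%. Both were higher than in the Slc6a3-high cells of all 4 sets. Lmx1a was higher as well, over 10 in 70.2% against 25.4% of Slc6a3-high cells. Over all tested entries 4.90% were higher and 3.42% lower than in Slc6a3-high cells. Of 20 energy metabolism genes 4 were higher and 0 lower, Got1, Idh3a, Slc25a5 and Ckmt1, with medians of 560 against 200.4 RPKM for Got1. Of 15 tested genes on the neuropeptide list, which does not hold Calca, Adcyap1 was higher (log2 difference 1.47) and Cck, Npw, Grp and Vip lower. Of 15 tested neurexins and their ligands 5 were higher and 0 lower, which were C1ql1, Nxph1, Cbln2, Lrrtm3 and Nxph4 itself. Among 8 tested firing channels and calcium buffers, the potassium channel genes Kcnc1 (1.78) and Kcnn2 (1.25) were higher and Calb1 (-1.87) lower. Of 11 tested immediate early and stress genes Junb, Npas4 and Hspb1 were higher and none lower. Junb overlaps the gene Prdx2 on the other strand, which had a mean of 421 RPKM in the Th-expressing cells. Reads of Junb and Prdx2 cannot be told apart where they overlap.

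The same limits were applied at the other stages as a description, since what a level means there can differ. In heterozygous mice they took 19 of 38 Nxph4-high cells at E13.5, which is 50% (exact 95% interval 33.4 to 66.6), and the median Th of the chosen cells was 1542 RPKM. At E15.5 they took 8 of 23 (34.8%) with a median Th of 415, and at E18.5 7 of 18 (38.9%) with a median of 139.02. After birth they took 11 of 44 (25%, 13.2 to 40.3) at P1 and 5 of 13 (38.5%, 13.9 to 68.4) at P7, with medians of 148.2 and 155.2, against 55.3% and 206.4 in the adult. Ddc was over 10 in 85.7% of the chosen cells at E18.5, in 80.9% at P90 and in 100% at every other stage. Slc6a3 was over 10 in 10.5% of them at E13.5, in 14.3% at E18.5, in 8.51% at P90 and in 0 cells at the other stages. Slc17a6 was over 10 in 78.9% at E13.5 and in 100% at P1 and P7, and its median was 42.9 RPKM at E13.5 and 274.96 at P90. Gad2 was over 10 in 9.09% of the 11 cells at P1, in 40% of the 5 at P7 and in 30.9% at P90. Lmx1a was over 10 in 100% of the chosen cells up to P7 and in 70.2% at P90. In Pitx3eGFP/eGFP mice, in which both Pitx3 alleles are replaced, the limits took 17 of 59 Nxph4-high cells at E13.5 and 7 of 26 at P1, or 28.8% and 26.9%. Their median Th was 273.6 and 44.7 RPKM, and Ddc was over 10 in 100% and 42.9%. By their labels, the homozygous E13.5 cells had ERCC spike-in RNA and the heterozygous E13.5 cells had none. Genotype and preparation therefore cannot be told apart at E13.5. Embryonic, young (P1 and P7) and adult tissue were each dissociated with another kit, so that kit and age cannot be told apart between these 3 age groups.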

How the data were processed

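The authors deposited 2 values per gene entry and cell, a read count, not normalized, and an RPKM, made with rpkmforgenes, which scales by transcript length and library reads. Reads were aligned with STAR to mm10 with eGFP and spike-in sequences added, and uniquely mapping reads were kept (Ensembl annotation). The values were checked to be whole-number counts and RPKM values of 39468 entries, of which 38130 had a symbol. In P90 cells 0.207% of reads lay on entries with no symbol, and 319 identifiers are repeated over 864 entries, where a symbol took its entry with the highest mean. One listed gene, Slc18a3, had no entry.

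Of 333 P90 cells, 325 held more than 100000 reads, and no 2 of the 1699 cells were identical. Total reads were 100007 to 8634201, so that 1 read in a cell gives an imprecise level, and RPKM gives a share of the RNA of a cell. Detection meant an RPKM over 10. Entries with a mean RPKM of at least 10 in either class were called 2-fold apart when log2 of (mean + 1) differed by at least 1, in the same direction in every set with at least 5 cells of both classes. On simulated counts for the comparison with Th-low cells (8034 entries) this called 82.0% of 3-fold, 100% of 4-fold and 98.0% of 8-fold higher entries. It also called 92.0% of 4-fold lower entries and 0.166% of unchanged ones. The simulation drew each entry independently, with the same relative spread between cells for all and no effect of set or animal. The 0.166% is therefore not the share of false calls in the real cells. Intervals are at 95%, exact for shares and Newcombe's for differences. Some counts of 0, but not all, are given with the upper limit of the exact interval or the share that 3 cells make.

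The cells, gene lists and comparisons were chosen with earlier results of these data known. Named were the genes of dopamine synthesis and handling, transmitters and the Nxph4 group, those of other lists past 2-fold, for each comparison the 12 in each direction with the largest difference in share among those past 2-fold, without the genes used to choose cells, and the 5 most like Th. Some listed genes are not reported here. Further genes were named after their values were seen (Fos, Adcyap1, Nrxn3, Mbp, eGFP and others without a call). Alternatives were other limits, thinning each cell to 100000 reads, other detection limits and pseudocounts, and leaving out sets or cells. Promoter windows came from RefSeq (GRCm38.p6) and gene positions from GENCODE vM21. Python 3.11.15, numpy 2.4.6, scipy 1.17.1 and pandas 2.3.3 were used.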

Additional observations from a re-analysis of the deposited data

How the results depend on the processing

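The share of Nxph4-high cells that expressed Th was 55.3% and 34.1% with a Th limit of 150, and 51.2% to 59.5% when each set was left out in turn. Chosen after the data were seen, sets 1 and 2 alone gave 63.2% and sets 4 and 5 alone 45.3%. The difference in Ddc from Th-low cells was 54.5 points, 66.8 with a Th limit of 150 and 25.5 with detection over 1, and 50.7 to 58.5 over sets left out. That in Slc18a2 was 41.3 points and 33.5 to 45.1 over sets left out, with 46.7 in sets 1 and 2 alone and 26.6 (4.22 to 45.8) in sets 4 and 5 alone. Against Slc6a3-high cells the difference in Slc17a6 was 41.5 points, 68.6 with detection over 50 and 39.1 to 45.8 over sets left out, and that in Cck was -80.6 points, -31.6 with detection over 1 and -83.8 to -79.2 over sets left out. An alternative value was called reversed only where the interval of the main value excluded 0. Genes whose main interval held 0 could therefore change sign without being called reversed. For the differences of 58 genes from Th-low cells, 770 of 812 alternative values lay within the interval of the main value, 42 moved outside it, 19 of them with detection over 50, and 0 reversed. From Slc6a3-high cells 90 genes gave 1260 values, of which 1162 lay within it, 97 moved, 41 of them with detection over 50, and 1 reversed, Kcnj6 at 1.44 points with detection over 50. The cause was not tested.

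Of the entries tested, the shares higher and lower than in Th-low cells (0.983% and 0.896%) became 0.299% and 0.324% with a pseudocount of 10, 1.55% and 1.28% of 15007 with a mean RPKM of at least 1, and 1.48% lower with a Th limit of 150. They were 0.934% and 0.897% without the 2 cells that met both rules. They ranged from 1.27% to 1.61% higher and 1.03% to 1.62% lower when a set was left out, which changes both the cells and the condition on sets, and of the 79 and 72 entries 61 to 70 and 57 to 67 were called again. With all cells and no condition on sets they were 1.32% and 1.31%. Sets 1 and 2 alone gave 2.04% and 3.25%, and sets 4 and 5 alone 3.04% and 2.21%. Against Slc6a3-high cells 4.90% and 3.42% became 1.67% and 1.80% with a pseudocount of 10, and 5.40% and 3.12% of 14973, more entries but a like share, with a mean RPKM of at least 1. They ranged from 5.80% to 6.43% and from 3.76% to 4.18% when a set was left out. Sets 1 and 2 alone gave 8.20% higher, and sets 4 and 5 alone 8.43% higher and 5.49% lower. No paired test was made, and differences within sets are given with the results for some genes only. The small number of cells limits values within sets, since 1 cell of set 5 is 1 of 9. Thinning each cell to 100000 reads moved 0 of 58 gene differences from Th-low cells and 1 of 90 from Slc6a3-high cells outside the interval of the main value.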
